A study of Mus musculus with 24 samples.

Results

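A set of 10 genes that respond to mitogen-activated protein kinase (MAPK) signaling was followed by symbol in RNA-seq read counts of mouse liver. They are *Egr1*, *Myc*, *Ier2*, *Ier3*, *Klf6*, *Nr4a1* and *Zfp36*, which are immediate-early genes other than the AP-1 factors, and the dual-specificity phosphatases *Dusp1*, *Dusp5* and *Dusp6*. All 10 members were found among the 24411 genes of the files, in all 24 libraries. The samples were livers of 2.5-month-old male mice, fasted for 16 h. LKO mice carried floxed *E2f7* and *E2f8* with Alb-Cre, driven by the albumin promoter and active in the liver lifelong, on a mixed, mostly FVB background, with an R26R mTmG reporter. Their littermate controls lacked Cre. HKO mice carried the floxed alleles, with the same reporter examined in that model, and received AAV8-TBG-Cre, a hepatocyte-directed virus, at 2 months, while their controls received AAV8-TBG-Null. At 0 h, without acetaminophen (APAP), 4 LKO and 4 control mice and 3 HKO and 3 control mice gave 1 library each. At 12, 24, 48, 72 and 96 h after 300 mg/kg APAP by intraperitoneal injection, RNA of 3 mice was pooled per genotype and time, so that 5 LKO and 5 control pools were sequenced. APAP is a painkiller that injures hepatocytes in overdose.

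Immediate-early genes are transcribed within minutes of a stimulus from factors that are already in the cell. Growth factors and stress activate the kinases ERK, JNK and p38, which act on serum response factor (SRF) and its partners at CArG boxes and on CREB at cyclic AMP response elements. Many of the products are short-lived. The DUSPs remove phosphate from the kinases and so close the loop: *Dusp1* acts on all 3 kinases in the nucleus, *Dusp5* on ERK in the nucleus and *Dusp6* on ERK in the cytoplasm. In liver, these genes are known for their response to injury and to partial hepatectomy.

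Reads on genes ranged from 12665686 to 19499897 per library, and 3 counts in a library corresponded to 0.154 to 0.237 counts per 1000000 (CPM), an allowance for counting error only. The 6 hepatocyte markers summed to between 51099 and 127249 CPM in every library. Counts cover whole genes, so that exons outside the deleted part of *E2f7* and *E2f8* are included and the deletion itself is not checked. *E2f8* read 18.0 to 34.1 CPM in LKO and 11.8 to 18.9 CPM in control mice, and 30.6 to 83.4 CPM in HKO and 14.8 to 26.3 CPM in their control mice. *E2f7* did not exceed 1.33 CPM in any mouse at 0 h. These whole-gene counts of *E2f8* were higher in knockout mice, which does not test the deletion, and LKO and HKO name libraries by their labels. RNA was taken from whole liver, in which fewer cells of a type and less RNA per cell cannot be told apart.

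Before APAP, the members differed widely in level. Per kilobase of merged exons, *Dusp1* (74.8 CPM per kilobase, RPKM) and *Zfp36* (64.5 RPKM) had the highest mean level in the 4 control mice of the LKO cohort. *Zfp36* encodes tristetraprolin, which binds AU-rich elements and speeds the decay of messenger RNAs. *Ier2* (30.1 RPKM) and *Dusp6* (24.7 RPKM) followed, and then *Nr4a1* (10.3 RPKM), *Egr1* (8.21 RPKM), *Myc* (5.91 RPKM) and *Klf6* (2.32 RPKM). *Ier3* (0.67 RPKM) and *Dusp5* (0.35 RPKM) were close to the limit of detection, with 6 to 14 and 8 to 21 counts per control mouse. The ranges of the 4 mice overlapped between all neighbors in this order, except between *Zfp36* and *Ier2* and between *Klf6* and *Ier3*. *Nr4a1*, an orphan nuclear receptor, read 105 CPM in control mouse 1 and 9.93 to 14.4 CPM in the other 3 control mice.

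**Figure D1:**
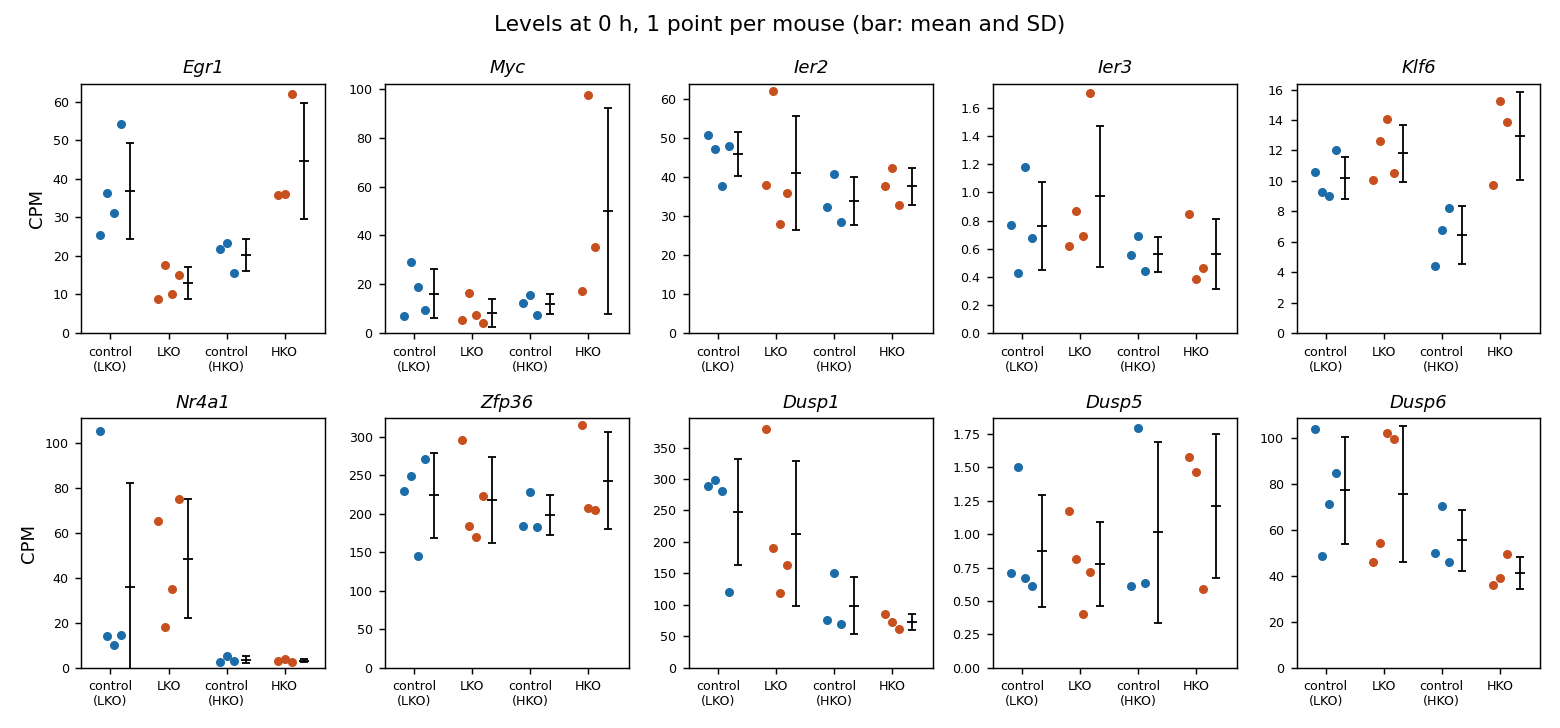
Level of each member at 0 h in CPM on a linear axis that starts at 0, with 1 point per mouse and the mean and SD as a black mark (cut at 0 for *Nr4a1*), for control and LKO mice of the LKO cohort and control and HKO mice of the HKO cohort. *Egr1* is lower in all 4 LKO mice (8.88 to 17.7 CPM) than in their controls (25.5 to 54.3 CPM) and higher in all 3 HKO mice (35.7 to 62.0 CPM) than in theirs (15.5 to 23.5 CPM).

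The first question was how the members responded to APAP in the LKO cohort. Each time was compared with 0 h in 1 fit of 18 libraries, averaged over both genotypes, so that 2 pools stand against 8 mice. A gene was called with edgeR's quasi-likelihood test at an adjusted p-value (Benjamini-Hochberg, all 13328 genes tested) below 0.05 with a change of at least 1.5-fold. At 12 h, 8 of 10 members had risen and none had fallen, while 17.3% of all genes tested were called higher and 14.9% lower. The median log2 fold change was 2.67 over the members and -0.0034 over all genes. At 24 h, 5 members were higher (14.3% of all genes) and 3 lower (12.3%). At 48 h, 4 were higher (10.5%) and 3 lower (7.24%), and at 72 h, 3 were higher (11.5%) and 1 lower (6.36%). At 96 h, no member was called in either direction, against 0.743% of all genes, although DESeq2 called *Dusp5*. By edgeR, 4 members had an unadjusted p-value under 0.05 at 96 h, as had 2244 of the 13328 genes. With scaling by library size alone, 68.9%, 80.4%, 79.1% and 79.4% of all calls at 24, 48, 72 and 96 h were higher, against 53.9%, 59.3%, 64.4% and 67.7% with TMM scaling.

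*Dusp5* rose most among the members. Its control pools held 149, 41.5, 23.2 and 2.36 CPM at 12, 24, 48 and 72 h, and 0 counts at 96 h, while the 4 control mice at 0 h held 0.615 to 1.504 CPM. The LKO pools held 18.5, 10.7, 0.792 and 0.191 CPM at 12, 24, 48 and 72 h and 1 count at 96 h, against 0.403 to 1.17 CPM in the LKO mice at 0 h. Both pools at 12 and 24 h thus lay above every mouse at 0 h, and at 48 and 72 h the control pool alone did. Over both genotypes, the log2 fold change from 0 h was 6.03 at 12 h (standard error, SE, 0.36, adjusted p = 5.6e-08), 4.76 at 24 h (SE 0.38, adjusted p = 8.0e-07) and 2.79 at 48 h (SE 0.42, adjusted p = 0.00034). At 96 h the pools, with 0 and 1 counts, were under the 3-count limit, and no fold change is given.

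*Egr1*, a zinc-finger transcription factor, was highest at 12 h, with 557 CPM in the control and 385 CPM in the LKO pool, a log2 fold change of 4.47 (SE 0.29, adjusted p = 8.9e-08). It was still called at 24, 48 and 72 h, with log2 fold changes of 1.62, 1.38 and 1.44. *Klf6*, a Krüppel-like transcription factor, rose to 268 CPM in the control and 82.7 CPM in the LKO pool at 12 h, from 9.01 to 14.1 CPM in the 8 mice at 0 h. Its log2 fold change was 3.84 at 12 h and 2.32, 2.10 and 1.27 at 24, 48 and 72 h, and all 4 were called, the last not with 1 genotype difference for all times (1.18, adjusted p = 0.051, edgeR). *Ier3*, a regulator of cell survival and ERK signaling, was called at the same 4 times (log2 fold change 3.20, 3.34, 2.93 and 2.12). *Myc*, a driver of cell growth, was called at 12 h (3.11, SE 0.42), and *Ier2*, a nuclear protein, at 12 h (2.23, SE 0.21) and 24 h (0.65, SE 0.23). For *Myc* the log2 fold change at 24 h was 1.14 with an adjusted p of 0.068, and it was called there with scaling by library size alone (1.28, adjusted p = 0.044), with the stranded column (0.049), without control mouse 2 (0.025) and without LKO mouse 2 (0.011).

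The 2 other phosphatases and the remaining members followed another course. *Dusp6* was called at 12 h alone (log2 fold change 1.43, SE 0.35), where the control pool held 370 CPM and the LKO pool 81.2 CPM, the latter within the range of the 8 mice (46.0 to 104 CPM). *Zfp36* was higher at 12 h (0.65, SE 0.21) and lower at 24 h (-0.99) and 48 h (-0.89). *Dusp1* was not called at 12 h (-0.12, SE 0.40) and was lower at 24, 48 and 72 h (-1.30, -1.37 and -1.92). *Nr4a1* was lower at 24 h (-2.60) and 48 h (-3.38). None of the calls of *Zfp36*, *Dusp1* and *Nr4a1* at 24 and 48 h, the lower calls of these times, held when either pool was left out, with adjusted p-values (edgeR) of 0.059 to 0.34, although all stayed negative. At 24 h without the control and the LKO pool, the log2 fold changes were -1.04 and -0.94 for *Zfp36*, -1.35 and -1.24 for *Dusp1* and -2.11 and -3.17 for *Nr4a1*, and at 48 h they were -1.09 and -0.70, -1.91 and -0.94, and -4.75 and -2.64. With scaling by library size alone, *Dusp1* was not called at 24 h (adjusted p = 0.062) and 48 h (0.081), nor *Nr4a1* at 24 h (0.053) and *Zfp36* at 48 h (0.059). Without control mouse 1, which stood far above the others, *Nr4a1* was called at both times (-1.86 and -2.65), but at 24 h it was not called without LKO mouse 1 (adjusted p = 0.052, edgeR) or LKO mouse 4 (0.059). *Dusp1* was not called without control mouse 1 or 2, at 24 h (adjusted p = 0.0501 and 0.0503, edgeR) or at 48 h (0.058 and 0.059).

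**Figure D2:**
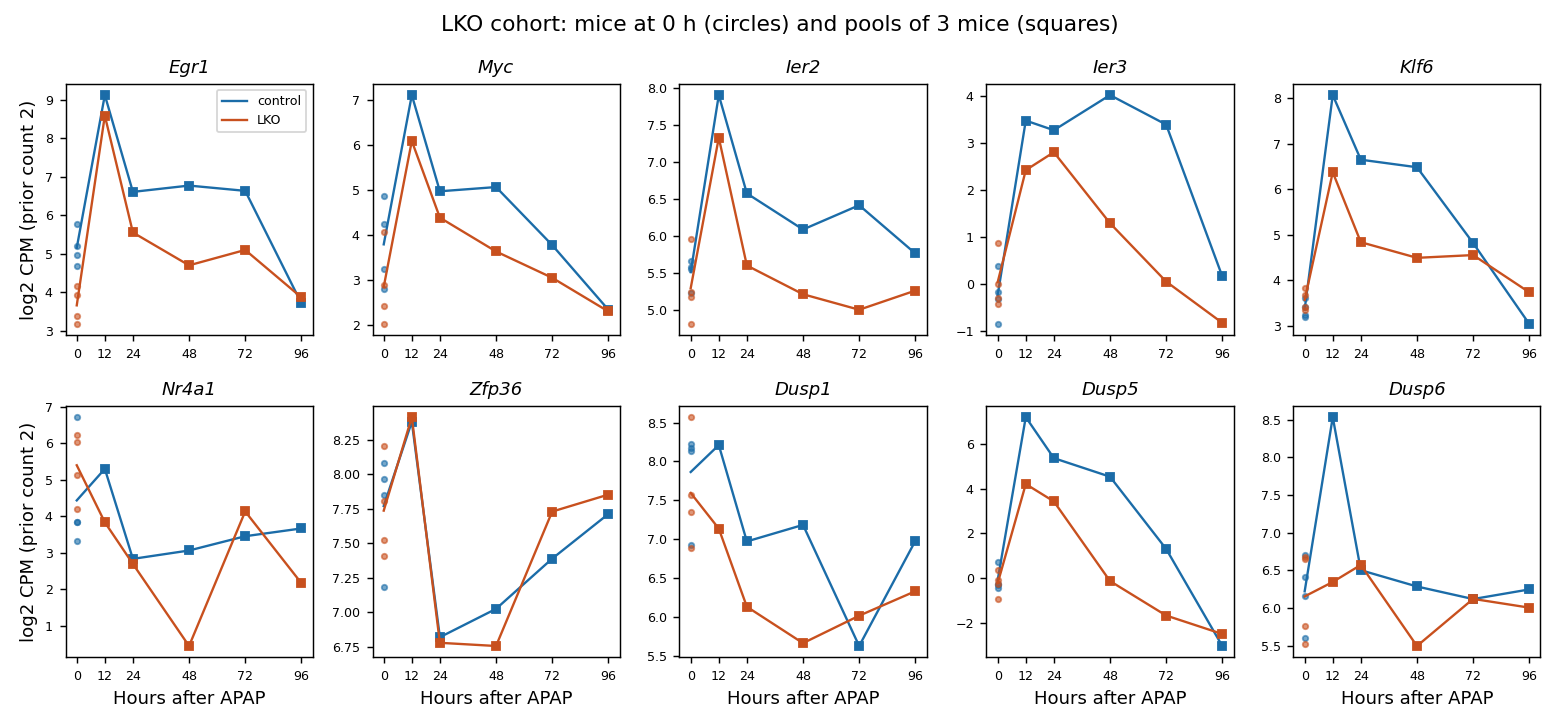
Log2 CPM (prior count of 2) of each member against hours after APAP in the LKO cohort, with circles for the 4 control (blue) and 4 LKO (orange) mice at 0 h and squares for single pools of 3 mice, and lines through the mean at 0 h; each panel has its own vertical range. *Dusp5*, *Egr1* and *Klf6* are highest at 12 h in both genotypes, and most LKO squares lie below the control squares up to 48 h. The first sample after APAP is at 12 h, so an earlier maximum would not be seen.

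The sequences of 2 start-site regions are shown because *Dusp5* carries the largest change and *Dusp1*, of the same family, was not called higher at any time. RefSeq promoters of GRCm38.p6 were held for 7 of the 10 members, and *Egr1*, *Myc* and *Ier2* could not be searched. The CArG box, searched on both strands in the 250 bases before and 50 after the start site, lay in 2 of the 7 (*Dusp5*, *Zfp36*) and in 1.63% of 32851 promoters. The cyclic AMP response element TGACGTCA lay in 1 of the 7 (*Dusp1*) and in 1.79% of promoters. The AP-1 motif TGANTCA (7.81% of promoters), the EGR motif GCGTGGGCG (0.612%) and the E2F motifs TTTCCCGC (1.07%) and TTTGGCGC (0.514%) were in none of the 7 windows. The 2 boxes of *Dusp5* lie back to back, 82 and 72 bases before its start site. The *Dusp5* stretch is chr19:53529005-53529104 on the plus strand and lies in an exon of the antisense gene AC137853.2 in GENCODE, and the *Dusp1* stretch is chr17:26508573-26508672 on the minus strand. Capitals mark the motifs.
*Dusp5*: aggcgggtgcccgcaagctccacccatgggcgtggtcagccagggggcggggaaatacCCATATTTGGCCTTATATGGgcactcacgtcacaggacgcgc
*Dusp1*: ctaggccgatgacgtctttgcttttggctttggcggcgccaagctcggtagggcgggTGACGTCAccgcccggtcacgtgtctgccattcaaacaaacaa
A match describes the letters in the window and is no evidence of binding. The libraries do not separate strands, so reads of *Dusp5* and of the antisense gene cannot be told apart where they overlap.

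The calls were recomputed without each pool, where a time is left with 1 library that is assumed to vary like the other groups and takes its genotype difference from the other times. Without the control or the LKO pool, fewer members were called at 12, 24, 48 and 72 h than with both. The share of all genes called in these fits is not given, so the members cannot be set against it. At 24 h, *Egr1*, *Ier3*, *Klf6* and *Dusp5* were called whichever pool was left out. Without the control pool, *Egr1* lost its call at 48 h (from 1.38 to 0.62, adjusted p = 0.43, edgeR) and 72 h (1.08, adjusted p = 0.25), and *Ier3* at 48 h (2.17, adjusted p = 0.070) and 72 h (from 2.12 to 0.76, adjusted p = 0.63). *Klf6* lost its call at 48 h without the control pool (1.44, adjusted p = 0.075) and at 72 h without the LKO pool (0.72, adjusted p = 0.35), and *Dusp1* at 72 h without the control pool (-1.33, adjusted p = 0.27). *Zfp36* at 12 h (0.63 and 0.65 without the control and the LKO pool) and *Ier2* at 24 h (0.59 and 0.71) lost their calls when either pool was left out, at about the same fold change. *Ier2* at 24 h also lost its call without any 1 of 6 of the 8 mice (adjusted p = 0.051 to 0.064, edgeR), and *Zfp36* at 12 h without control mouse 3 or LKO mouse 3, where its log2 fold change (0.57 and 0.58) was under the 1.5-fold limit. *Dusp5* at 48 h was called without the LKO pool (3.53) and not without the control pool (1.25, adjusted p = 0.29, edgeR). *Dusp6* was among the calls at 12 h without the LKO pool (2.19) and not without the control pool. Time after APAP cannot be told apart from time since the fast or from the hour of collection. Of 8 clock genes, 1 was higher and 4 lower at 12 h, and 4, 3 and 1 were lower and 0 higher at 24, 48 and 72 h. Of 6 neutrophil markers tested, 4 were higher at both 12 and 24 h, 3 at 48 h and 2 at 72 h, with 0 lower at each time. Of 6 stellate cell markers, 3 were lower at 12 h and 2 at 24 h with 0 higher, while 4 were higher at 48 h and 6 at 72 h with 0 lower. Of 8 macrophage markers, 2 were higher and 1 lower at 12 h, 2 and 3 at 24 h, 3 and 0 at 48 h, and 4 and 0 at 72 h. Of 5 endothelial markers, *Stab2* and *Kdr* were lower at 24, 48 and 72 h (-1.51 and -0.75 at 24 h) and *Lyve1* was higher at 12, 24 and 48 h, and *Clec4g* was lower at 12 h. Of 5 cholangiocyte markers, *Sox9* was higher at 12, 24 and 48 h (3.50, 1.94 and 1.65) and *Spp1* at 48 h, and *Krt19* was lower at 48 h and *Epcam* at 72 h. Of 6 hepatocyte markers, *Ttr* was lower at 12 h (-0.97), *Cyp2e1* lower at 24 and 48 h (-2.13 and -2.71) and *Apoa1* higher at 24 h (0.79), and of 4 lymphocyte markers tested none was called by edgeR at these times. The part of these genes in the members' changes was not tested.

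Other genes of the pathway are read against the shares of all genes called, which were 17.3% higher and 14.9% lower at 12 h. Of 30 other immediate-early genes tested, 21 were higher and none lower at 12 h, with *Gadd45a* (4.18), *Egr2* (3.66) and *Gadd45b* (3.51) the largest log2 fold changes. The same list had 7 higher and 5 lower at 24 h, against 14.3% and 12.3% of all genes. It had 7 and 6 at 48 h (10.5% and 7.24% of all genes) and 2 and 6 at 72 h (11.5% and 6.36%). The 2 of 30 higher at 72 h were a smaller share than that of all genes. At 96 h the list had 0 and 1, against 0.503% and 0.24% of all genes. Of 6 other MAPK phosphatases tested, 4 were higher at 12 h, led by *Dusp10* (3.30), which acts on JNK and p38, *Dusp4* (2.91) and *Dusp8* (2.08). Of 7 other feedback inhibitors of ERK, 4 were higher and 1 lower, led by *Spred3* (3.68), *Spry2* (1.89) and *Spry1* (1.48). Of 25 genes of the kinase cascade and SRF and its partners, 10 were higher and 3 lower at 12 h, the latter a smaller share than that of all genes, including *Mapk13* (2.04), which encodes a p38 kinase, and the kinases upstream of p38, *Map2k6* (-1.91) and *Map2k3* (1.55).

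The next question was whether LKO livers differed from control livers after APAP. The 5 LKO and 5 control pools were compared with the time point as a block, so the spread is that between time points. Of 10 members, 2 were called, both lower in LKO, while 0.579% of the 12782 genes tested were called. Of the 10 log2 fold changes, 9 were negative, with a median of -0.95 over the members and -0.014 over all genes. By edgeR, 8 members had an unadjusted p-value under 0.05, as had 2284 of the 12782 genes. *Dusp5* had a log2 fold change of -3.10 (SE 0.42, adjusted p = 0.024). That of *Ier2* was -0.89 (SE 0.16, adjusted p = 0.048), from control pools of 240, 95.5, 68.1, 85.5 and 54.3 CPM and LKO pools of 161, 48.5, 37.0, 32.0 and 38.3 CPM at 12, 24, 48, 72 and 96 h. The LKO pool of *Ier2* was below the control pool at all 5 times. That of *Dusp5* was below it at the first 4.

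For the other 8 members the difference was not called. The log2 fold changes were -1.81 for *Ier3* (adjusted p = 0.087), -1.09 for *Klf6* (0.17), -1.05 for *Egr1* (0.11), -1.001 for *Nr4a1* (0.24), -0.81 for *Myc* (0.087), -0.77 for *Dusp1* (0.15), -0.63 for *Dusp6* (0.30) and 0.02 for *Zfp36* (0.96). *Ier3* read 11.0, 9.51, 16.1 and 10.3 CPM in the control and 5.22, 6.84, 2.32 and 0.909 CPM in the LKO pools at 12, 24, 48 and 72 h. The log2 ratio of the LKO to the control pool of *Ier3* (prior count of 2) was -1.07, -0.46, -2.72 and -3.36 at these times and -0.99 at 96 h. The gap was thus widest at 48 and 72 h.

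Both calls were then recomputed without each time. Without 12 h, no member was called, and *Dusp5* had an adjusted p of 0.084 at a log2 fold change of -3.15. Without 24, 48 or 72 h, *Dusp5* alone was called, and without 96 h, *Egr1*, *Myc*, *Ier2*, *Klf6* and *Dusp5* were. Without the block for time none was called. DESeq2 called 7 members, all lower, but it also called more of all genes than edgeR, with the counts given in the last section. With scaling by library size alone, *Dusp5* alone was called (*Ier2* adjusted p = 0.081), and 71.4% of all calls were higher in LKO, against 43.2% with TMM scaling. The cholangiocyte markers (5 genes) summed to 21.8 to 216 CPM in the control and 21.8 to 87.1 CPM in the LKO pools, the macrophage markers (8 genes) to 157 to 772 and 158 to 898 CPM, the neutrophil markers (6 genes in the files) to 8.78 to 33.1 and 2.47 to 31.9 CPM, and the stellate cell markers (6 genes) to 29.8 to 718 and 35.9 to 361 CPM. *Mmp8*, a neutrophil marker, was at 0 in the control pool at 96 h and *Krt7*, a cholangiocyte marker, in the LKO pool at 12 h. At 12, 24, 48, 72 and 96 h, the cholangiocyte markers summed to 168, 55.9, 216, 68.2 and 21.8 CPM in the control and 35.8, 50.8, 87.1, 44.2 and 21.8 CPM in the LKO pools, so that the LKO pool was lower at the first 4 times. The neutrophil markers summed to 17.3, 14.1, 33.1, 28.2 and 8.78 CPM and to 17.6, 31.9, 10.4, 9.04 and 2.47 CPM, lower in LKO from 48 h on and higher at 24 h. The stellate cell markers were lower in the LKO pool at 48 h (170 and 125 CPM) and 72 h (718 and 361 CPM), the macrophage markers at 12 h (182 and 158 CPM) and 96 h (548 and 213 CPM) and higher at the other 3 times, and the hepatocyte markers lower at 4 times, with 102075 and 61083 CPM at 12 h, and higher at 48 h. The log2 fold changes of LKO against control were negative for all 5 cholangiocyte markers (median -1.01, with *Sox9* at -1.38 and an adjusted p of 0.058 by edgeR) and for all 6 neutrophil markers (median -0.88), beside the median of -0.95 over the members. None of the cell type markers tested was called in this comparison, and their part in the members' differences was not tested.

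**Figure D3:**
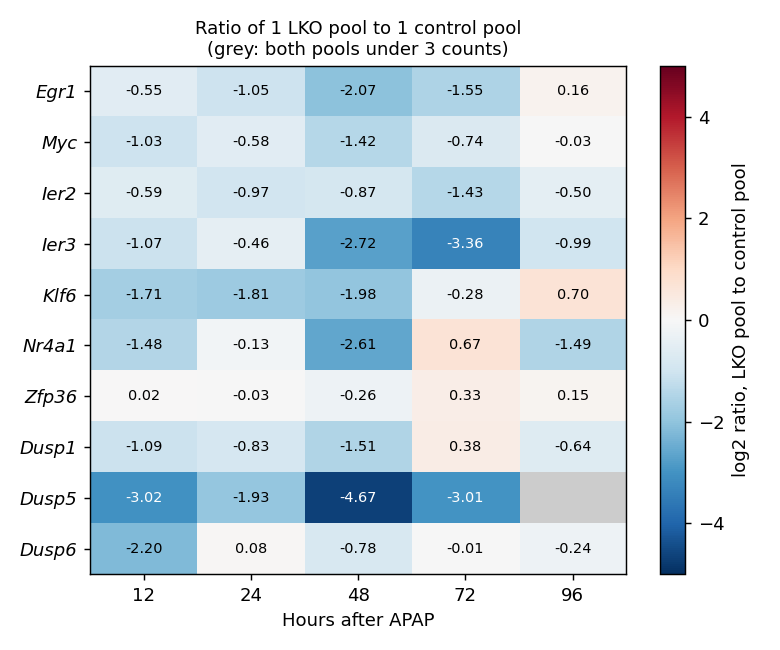
Log2 ratio of the LKO pool to the control pool (blue: lower in LKO, red: higher) for each member at each time, from log2 CPM with a prior count of 2; each cell compares 1 pool with 1 pool, and grey marks pools both under 3 counts. *Dusp5* is lower at 12, 24, 48 and 72 h (-3.02, -1.93, -4.67 and -3.01), and all 10 members are lower at 48 h.

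The ratio of the pools at a single time has no replicate check. At 12 h, 7 members were at least 2-fold lower in the LKO pool and none at least 2-fold higher, against 11.7% and 8.65% of 13328 genes. At 24 h, 3 members were lower by that much (4.15% of genes) and none higher (3.05%). At 48 h, 7 were lower (8.61%) and none higher (6.99%), with a median log2 ratio of -1.75 over the members and 0.016 over all genes. At 72 h, 4 were lower and none higher (6.21% of genes each way), and at 96 h, 1 of the 9 members with at least 3 counts was lower (4.12%) and none higher (6.26%). *Nr4a1* was that member, with 12.6 CPM in the control and 4.39 CPM in the LKO pool.

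Over 12 to 96 h, 42 of the 12782 genes tested were called lower in LKO. Among 29 other immediate-early genes tested, 2 were called lower: *Btg2* (log2 fold change -1.75), a brake on cell proliferation, and *Id1* (-1.57), an inhibitor of differentiation. The median of this list was -0.73. None of 6 other MAPK phosphatases (median -0.84), 7 ERK feedback inhibitors (-0.57) or 25 genes of the kinase cascade (-0.089) was called by edgeR.

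At 0 h, the members were compared between genotypes within each cohort. In the LKO cohort, edgeR called none of 10 members and 0% of 12426 genes. Its unadjusted p-value was under 0.05 for 1 member, *Egr1*, and for 352 of all genes tested. *Egr1* read 25.5, 36.3, 31.2 and 54.3 CPM in the control and 8.88, 17.7, 10.2 and 15.1 CPM in the LKO mice. The groups did not overlap, a separation that 1.75% of genes showed and no other member did. The log2 fold change was -1.50 (SE 0.27, adjusted p = 0.999). DESeq2 called *Egr1* (adjusted p = 0.00051). For *Dusp5* and *Ier2*, which differed after APAP, the log2 fold changes were -0.17 (SE 0.44) and -0.15 (SE 0.22).

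In the HKO cohort, none of the 9 members tested was called, against 0.96% of 12397 genes, and *Ier3* did not pass the filter on low counts. Of the 9 members, 4 had an unadjusted p-value under 0.05 by edgeR, as had 1598 of the 12397 genes. *Egr1* read 21.7, 23.5 and 15.5 CPM in control and 35.7, 36.2 and 62.0 CPM in HKO mice (log2 fold change 1.15, SE 0.24, adjusted p = 0.061). *Klf6* read 4.42, 6.76 and 8.21 CPM against 9.75, 15.3 and 13.8 CPM (1.01, SE 0.26, adjusted p = 0.12). *Myc* read 12.1, 15.7 and 7.58 CPM against 17.0, 97.4 and 35.2 CPM (2.09, SE 0.55, adjusted p = 0.13). These 3 of the 9 members tested did not overlap between the groups, as 18% of genes did not. *Dusp6* was lower, with overlapping groups (-0.42, adjusted p = 0.37). DESeq2 called *Egr1* and *Klf6*, and without HKO mouse 1 edgeR called *Egr1*, *Klf6* and *Myc*. With scaling by library size alone, 56.7% of all calls were higher in HKO, against 43.7% with TMM scaling.

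Lymphocyte markers (6 genes) summed to 4.01 to 7.21 CPM in HKO and 1.20 to 2.83 CPM in control mice, and unmapped reads made up 5.72% to 7.25% against 8.95% to 12.5%, both without overlap. Clock genes also moved with this comparison. Of 8, *Arntl* was higher in HKO mice (log2 fold change 2.24) and *Per3*, *Dbp*, *Per2* and *Tef* were lower, with *Dbp* at -2.70 and *Per3* at -2.40. None of the 8 was called between LKO and control mice at 0 h, where 0% of all genes were. The log2 fold changes there were 2.21 for *Npas2*, -1.11 for *Ciart*, 0.66 for *Arntl* and -0.41 for *Per2*. They were -0.29 for *Dbp*, -0.27 for *Per3*, -0.26 for *Tef* and 0.048 for *Nr1d1*. The signs were those in HKO mice, except for *Nr1d1* (-0.081 in HKO). The part of lymphocytes, mapping and collection time in the members' values was not tested.

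**Figure D4:**
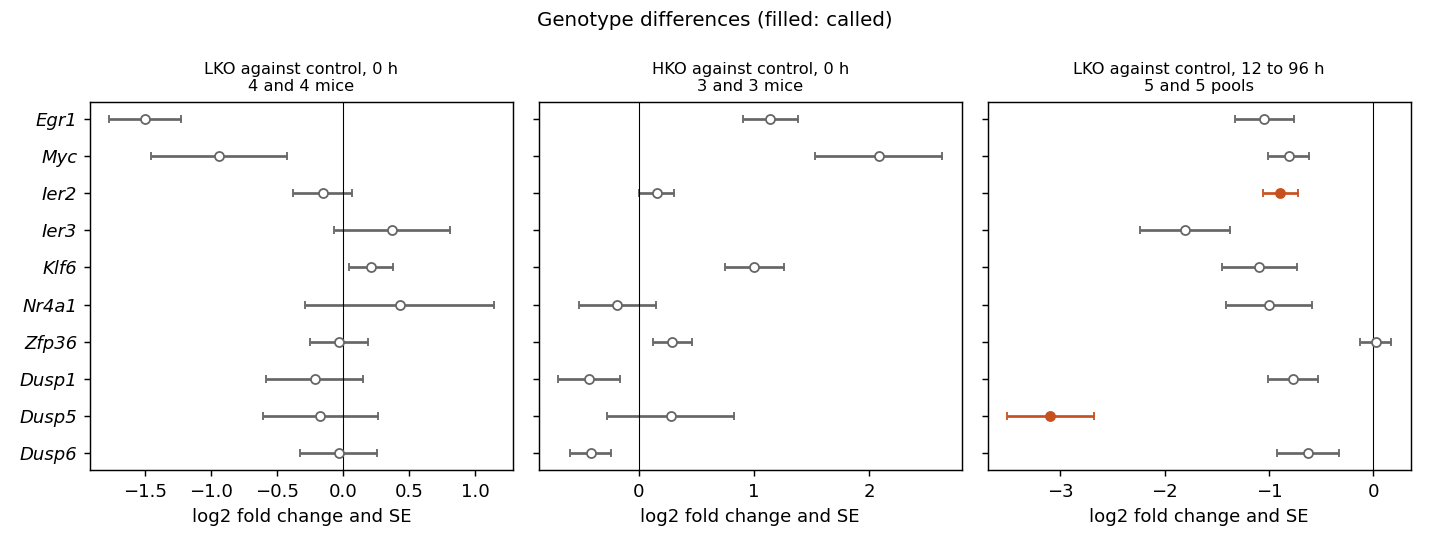
Log2 fold change of knockout against control with its SE for each member, for LKO at 0 h, HKO at 0 h and LKO over 12 to 96 h; filled points were called, each panel has its own horizontal range, and *Ier3* was not tested in HKO mice. Only *Ier2* and *Dusp5* over 12 to 96 h are filled, and *Egr1* lies left of 0 in the LKO panels (-1.50 and -1.05) and right of 0 in the HKO panel (1.15).

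The effects were then compared with each other. At 0 h, edgeR called the difference between the LKO and the HKO effect for none of 10 members and 0% of 12945 genes. This difference had an unadjusted p-value under 0.05 for 3 members and 579 of all genes. It was -2.65 for *Egr1* (SE 0.41, adjusted p = 0.074), -3.02 for *Myc* (SE 0.86, adjusted p = 0.77) and -0.79 for *Klf6* (SE 0.31, adjusted p = 1.00). DESeq2 called *Egr1* (adjusted p = 3.0e-06), and edgeR did without LKO mouse 2. The cohorts also differ, among other things, in the Cre driver (Alb-Cre or AAV8-TBG-Cre), in the virus and in age at deletion. The LKO effect over 12 to 96 h against that at 0 h was called for none of 10 members and 0% of 13328 genes. This difference of effects had an unadjusted p-value under 0.05 by edgeR for 4 members and 1285 of all genes. It was -2.92 for *Dusp5* (SE 0.65, adjusted p = 0.36), which DESeq2 called, -2.18 for *Ier3*, -1.30 for *Klf6* and -0.73 for *Ier2*. For *Egr1* it was 0.46 (SE 0.42).

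Likeness was measured over the 18 libraries of the LKO cohort as the root-mean-square difference of log2 CPM after each gene's own mean was removed, among 13328 genes. The nearest gene outside the 10 was *Adamts1* for *Klf6* (0.43), *Hmox1* for *Egr1* (0.66), *Rasd1* for *Myc* (0.58), *Il1r2* for *Ier3* (0.61) and *Fosl1* for *Dusp5* (0.96). It was *Ahdc1* for *Zfp36* (0.25), *Mcl1* for *Dusp6* (0.34), *Sema3f* for *Ier2* (0.35), *Pim3* for *Dusp1* (0.46) and *Krt19* for *Nr4a1* (1.06). Among the members, *Ier2* and *Dusp6* (0.67) and *Egr1* and *Myc* (0.77) were each other's nearest, but *Dusp6* ranked only 1286 in nearness to *Ier2* and *Ier2* 3090 to *Dusp6* among all genes, while *Myc* ranked 4 for *Egr1* and *Egr1* 27 for *Myc*.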

How the data were processed

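Whole-liver RNA of 24 libraries was sequenced. Raw read counts per gene, without normalization, were deposited by the authors after trimming (Trimmomatic) and STAR alignment on mm10. The column that disregards strand was used. The 2 stranded columns had near-equal totals (one held 49.2% to 49.9% of their sum), so they do not separate strands. The 4 entries that name no gene (unmapped 2.63% to 20.6%, multimapping 4.69% to 8.06%, no feature 7.29% to 14.7% and ambiguous 1.51% to 2.01% of reads) were left out.

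The main tool was edgeR 4.0.16 in R 4.3.3 (filterByExpr, TMM, quasi-likelihood test, 2-sided, Benjamini-Hochberg over all genes) and with DESeq2 1.42.0 as an alternative. The SE given with edgeR values is the absolute log2 fold change divided by the square root of the test's F statistic, and is thus approximate. Levels are CPM over 24 libraries, and pool ratios use log2 CPM over 18 libraries with a prior count of 2. Members, gene lists and the rule for named genes (all 10 members, and up to 3 called genes per list and comparison) were chosen with earlier results of these data known. filterByExpr was given cohort, genotype and 0 h against later times as groups, a choice made after results with the design matrix as its grouping had been seen. Mice at 0 h are separate animals, and pools have no replicate at a time. Replicate numbers are not stated to pair mice. The planned comparison of the phosphatase proteins was not run.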

Additional observations from a re-analysis of the deposited data

Results flagged for a closer look

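In 20 groups of 4 mice at 0 h (10 members, control and LKO mice), the gap of 1 mouse to its nearest neighbor, divided by the range of the group, passed Dixon's critical value for 4 samples in 3 groups, all of them control mice. Chance alone flags about 1 in 20 groups. *Nr4a1* read 105 CPM in control mouse 1 and 9.93 to 14.4 CPM in the other 3 (ratio 0.953). *Dusp1* read 121 CPM in control mouse 4 and 281 to 299 CPM in the other 3 (ratio 0.899). *Dusp5* read 1.504 CPM, from 21 counts, in control mouse 2, and 0.615 to 0.708 CPM, from 8 to 12 counts, in the other 3 (ratio 0.896).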

How the results depend on the processing

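Each member's log2 fold change was recomputed under each alternative. For those called in the report, 479 of the recomputed values kept the call, 54 lost it and 0 turned their direction. For those not called, 37 gained a call and 51 turned. Which calls are made depends on the tool, the filter and single libraries, and the cause was not tested. Counts of 0 and 1 in the pools at 96 h set the limit for *Dusp5*.

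With DESeq2, 1 member was called between LKO and control mice at 0 h, 2 between HKO and control mice, 7 over 12 to 96 h, 1 for the LKO against the HKO effect, 1 for the LKO effect after APAP against that at 0 h, and 1 at 96 h against 0 h, where edgeR called 0, 0, 2, 0, 0 and 0. Without a filter on low counts, the counts were 3 (HKO), 5 (12 to 96 h), 1 (LKO against HKO effect) and 1 (96 h). With at least 10 counts in every library, 0 were called over 12 to 96 h, where *Dusp5* is filtered out, and with no block for the time point, 0 as well. With library size alone, 1 was called for HKO and 1 over 12 to 96 h, and with the stranded column 1 for HKO. Over all genes, DESeq2 called 331 against 119 (HKO), 606 against 74 (12 to 96 h) and 408 against 99 (96 h). In the HKO comparison 255 genes were called without a filter and 31 in the joint fit of both cohorts. Over 12 to 96 h, 337 were called without a filter, 314 in a fit with the mice at 0 h, 42 with library size alone, 34 with the strict filter and 0 without the block for time. Giving filterByExpr the design matrix, an alternative chosen after seeing the data, again called 2 members over 12 to 96 h.

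Scaling by library size alone moved the median log2 fold change of all genes to 0.13 between LKO and control mice at 0 h, and to 0.14 and 0.19 at 24 and 48 h against 0 h. It turned *Zfp36* (0.099) and *Dusp6* (0.084) at 0 h in LKO mice. It moved the median pool ratio of the members to -0.93 at 12 h, -1.90 at 48 h and 0.068 at 96 h, and the stranded column moved it to -0.69 at 72 h. With 1 genotype difference for all times, *Dusp5* at 72 h became 0.17 and *Klf6* at 96 h -0.033, and *Ier2* at 24 h (0.65, adjusted p = 0.074, edgeR) and *Klf6* at 72 h (1.18, adjusted p = 0.051) lost their calls.

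Equal replicate numbers did not mark pairs: the deviations of equally numbered mice correlated at -0.38 to 0.22 in the LKO cohort and -0.031 to 0.20 in the HKO cohort, and not every mouse correlated best with its own number. With the replicate number as a block, 2 members (*Myc* and *Klf6*) and 263 genes were called for HKO. *Myc* was also called at 24 h (1.36, adjusted p = 0.0012, edgeR) and 48 h (1.07, adjusted p = 0.0075). *Myc* at 72 h became 0.086 and *Zfp36* at 96 h 0.0027. At 96 h, 41 genes were called under the block, and the number of members called in the other comparisons stayed within 1.5 times.

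Leaving out 1 mouse, pool or time point, the number of members called ranged from 0 to 3 (HKO), 0 to 5 (12 to 96 h), 0 to 1 (LKO against HKO effect), 4 to 9 (24 h), 0 to 7 (48 h) and 1 to 4 (72 h). The share of all genes called in these fits is not given beside these counts. The log2 fold changes that turned ranged as follows. Between LKO and control mice at 0 h, *Dusp6* ranged from -0.21 to 0.14, *Zfp36* from -0.22 to 0.072, *Dusp5* from -0.42 to 0.21 and *Ier3* from -0.040 to 0.64. Between HKO and control mice, *Nr4a1* ranged from -0.41 to 0.21 and *Dusp1* from -0.63 to 0.0048. Over 12 to 96 h, *Zfp36* ranged from -0.040 to 0.11. For the LKO against the HKO effect, *Dusp1* ranged from -0.22 to 0.41 and *Ier3* from -0.060 to 0.77. For the LKO effect after APAP against 0 h, *Zfp36* ranged from -0.038 to 0.25 and *Myc* from -0.31 to 0.74. Against 0 h, *Dusp1* at 12 h ranged from -0.35 to 0.085 and *Dusp6* at 24 h from -0.16 to 0.71. At 72 h the ranges were -0.26 to 0.18 for *Myc*, -0.54 to 0.060 for *Dusp5*, -0.077 to 0.63 for *Ier2* and -0.51 to 0.24 for *Dusp6*. At 96 h they were -0.096 to 0.071 for *Zfp36*, -0.17 to 0.28 for *Ier2*, -1.42 to 0.027 for *Egr1*, -0.38 to 0.081 for *Dusp6* and -1.19 to 0.97 for *Klf6*.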
